A study of Mus musculus with 20 samples.

Results

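The genes described here encode the collagens, laminins, fibulins, fibrillins, latent TGFB binding proteins, thrombospondins, nidogens and glypicans, together with fibronectin (Fn1), Sparc, Mgp, decorin (Dcn), biglycan (Bgn), elastin (Eln) and Hapln4. They are defined by their gene symbols, and 56 of the 14299 genes in the count table carried such a symbol. A further 30 annotated genes that match the same symbols, among them Lum, Postn, Fbn1, Nid1 and Thbs2, were not among the genes of the table. The authors state that genes detected in under 10 cells were left out. The cells were mouse ovarian surface epithelium (OSE), the single layer of cells that covers the ovary, grown as primary cultures. After 48 hours in hormone-free medium, control cells received the vehicle, ethanol at 0.0002%, and treated cells received 100 nM estradiol (E2), both for 15 days. Single cells were captured on 1 Fluidigm C1 chip, and each of its 20 columns gave 1 library of cDNA 3′ ends, with control cells in columns 1 to 10 and E2-treated cells in columns 11 to 20. The sample labels do not name the cell suspensions, dishes or mice behind each condition. E2 therefore cannot be told apart from suspension, dish or side of the chip, and p-values measure only the spread between libraries of this 1 chip.

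Matrix proteins are secreted and assembled outside the cell. Fibrillar collagens are trimers that form the fibers of connective tissue, and type I collagen is built from Col1a1 and Col1a2 chains. Type IV collagen and laminins form the basement membrane under an epithelium such as the OSE, with nidogens as linkers. Type VI collagen forms beaded filaments near cell surfaces, and fibronectin, fibulins and small leucine-rich proteoglycans such as decorin and biglycan organize the fibers. Glypicans are heparan sulfate proteoglycans of the cell surface, and latent TGFB binding proteins (Ltbps) and thrombospondins hold or release growth factors.

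The authors split the cells into 2 groups with SC3, a consensus clustering method, and the names used here are theirs. Responsive cells numbered 203 in 10 control libraries and 218 in 9 E2 libraries. Cluster 1 held 126 control cells in 10 libraries and 42 E2 cells, of which 39 cells in 7 libraries lay in sums of at least 3 cells. Reads were summed over the cells of each library and cell group, and these sums are the samples of every comparison. Levels are CPM, the reads of a gene scaled by TMM to the same total in every sum. No cells of column 13 were in the tables. Median reads per cell were 143233 and 117809 in control and E2 responsive cells and 112126 and 87632 in control and E2 cluster 1 cells, and the median share of mitochondrial reads ran from 2.08% to 3.55%. The E2 library of column 15 stood apart from the others, with a median correlation of log2 CPM with the other libraries of 0.808 against 0.865 to 0.890 for the rest. Values without it are given as well for some of the genes that it moved.

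Of the epithelial markers, Krt7 (a simple-epithelium keratin) was read in all 589 cells and Wt1 (a mesothelial transcription factor) was at 573 CPM in pooled control responsive cells and 736 CPM in pooled control cluster 1 cells. Other genes of the same list differed between the cell groups. In pooled control cells, Krt19 was at 395 CPM in responsive cells and 20.0 CPM in cluster 1, Msln at 41.0 and 386 CPM, and Krt18 at 391 and 794 CPM. The OSE list, 9 of whose 12 genes were in the table, summed to a median of 5720 CPM in control responsive cells and 6168 CPM in control cluster 1 cells. Among stromal fibroblast markers, Pdgfra stayed at or under 10.5 CPM in every group, Pdgfrb, Tcf21 and Lum were not among the genes of the table, and Dcn, itself a matrix gene, was read in every cell. That list, 6 of 9 genes, had median sums of 1571 and 1375 CPM in control and E2 responsive cells and 1511 and 1713 CPM in control and E2 cluster 1 cells. Dcn held most of these sums, at 1201 CPM in pooled control responsive and 1494 CPM in pooled control cluster 1 cells. Other genes of the list differed between the cell groups. Pooled control responsive and cluster 1 cells had Thy1 at 162 and 8.93 CPM and S100a4 at 180 and 29.1 CPM. Tcf4 went the other way, at 30.7 and 84.3 CPM. In pooled E2 responsive cells Thy1 was at 23.1 CPM. Of the theca list, 3 of 6 genes were in the table and summed to medians of 40.3 CPM in control and E2 responsive cells and of 197 and 256 CPM in control and E2 cluster 1 cells, nearly all from Star, with its defining genes Cyp17a1 and Lhcgr not among the genes of the table. The granulosa list, 2 of 7 genes (Inha and Inhbb), had medians of 30.8 and 28.1 CPM in responsive and 92.6 and 72.7 CPM in cluster 1 cells. The muscle, endothelium and leukocyte lists had 5 of 8, 4 of 8 and 4 of 8 genes in the table, with group medians of 8.55 to 20.4, 464 to 556 and 14.3 to 78.6 CPM. In control cluster 1 the muscle list had a median of 9.56 CPM but reached 1425 CPM in its highest library. Pooled, its gene Tagln was at 69.1 CPM in control and 1.60 CPM in E2 cluster 1 cells. Most of the endothelium sums came from Pecam1, read in all 589 cells, at 464 to 539 CPM in the pooled groups. The part of such cells in the results was not tested.

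Matrix genes took 1.54% ± 0.083 (SD, n = 10 libraries) of all reads in control responsive cells and 1.31% ± 0.098 (n = 9) in E2 responsive cells. In cluster 1 they took 1.28% ± 0.147 (n = 10) in control and 1.14% ± 0.236 (n = 7) in E2 libraries. Without Sparc the order of the cell groups turned, with 0.791% in control and 0.775% in E2 responsive cells and 0.931% in control and 0.899% in E2 cluster 1 cells. Sparc, a collagen-binding glycoprotein of basement membranes, made up 48.5% ± 2.04 of the matrix reads in control responsive cells and 27.4% ± 3.99 in control cluster 1 cells. Fibrillar collagens went the other way, from 8.42% ± 1.03 of the matrix reads in control responsive cells to 22.7% ± 2.72 in control cluster 1 cells, and Col1a2 alone made up 15.6% ± 2.27 of them in the latter. Only Sparc and Dcn were read in every cell, 11 of the 56 genes were read in over 500 cells and 17 in fewer than 50 cells.

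Promoter sequences from RefSeq (GRCm38.p6) were at hand for 35 of the 56 genes, of which 5 are shown for the genes that the cluster and E2 comparisons turn on. Each stretch lies before the gene's RefSeq start and outside its GENCODE exons, is written 5′ to 3′ as the gene is read, and has motif letters in capitals. The Col1a2 stretch is chr6:4505370-4505492 (plus strand) and the Gpc3 stretch is chrX:52613975-52614224 (minus strand), from genes that were far higher in cluster 1. A longer GENCODE transcript of Col1a2 starts farther upstream, so that its stretch lies within the gene span given below, in an intron of that transcript. Col6a1 is shown at chr10:76726169-76726294 and Col6a2 at chr10:76623631-76623880, both on the minus strand, from genes that rose with E2. Bgn, which fell with E2, is shown at chrX:73483351-73483600 (plus strand).
Col1a2: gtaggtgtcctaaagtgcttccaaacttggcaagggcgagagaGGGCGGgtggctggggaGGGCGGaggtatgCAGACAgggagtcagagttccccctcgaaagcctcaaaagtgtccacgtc
Gpc3: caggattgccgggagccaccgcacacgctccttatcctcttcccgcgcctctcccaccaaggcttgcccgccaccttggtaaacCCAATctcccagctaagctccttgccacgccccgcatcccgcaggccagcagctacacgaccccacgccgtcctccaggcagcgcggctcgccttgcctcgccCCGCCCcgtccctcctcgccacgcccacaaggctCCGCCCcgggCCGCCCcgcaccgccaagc
Col6a1: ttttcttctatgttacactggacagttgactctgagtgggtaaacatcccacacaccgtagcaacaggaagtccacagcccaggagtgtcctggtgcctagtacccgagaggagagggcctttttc
Col6a2: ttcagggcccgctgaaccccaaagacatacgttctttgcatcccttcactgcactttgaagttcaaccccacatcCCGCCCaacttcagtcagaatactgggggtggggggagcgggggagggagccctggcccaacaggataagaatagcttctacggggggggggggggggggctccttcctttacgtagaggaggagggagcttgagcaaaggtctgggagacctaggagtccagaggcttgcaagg
Bgn: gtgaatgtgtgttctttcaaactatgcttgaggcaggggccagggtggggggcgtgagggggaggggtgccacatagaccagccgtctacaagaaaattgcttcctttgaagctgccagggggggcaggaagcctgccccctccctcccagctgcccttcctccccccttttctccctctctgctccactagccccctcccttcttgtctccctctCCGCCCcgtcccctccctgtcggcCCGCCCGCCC

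The letters of 7 motifs were searched on both strands of the 250 bases before each start. For each matrix gene only the window closest to the annotated gene start was used. Shares of all promoters are over every window, without this choice and without a limit to genes of the count table. The 2 kinds of share are therefore not over like sets. The GC box (GGGCGG, or read on the other strand CCGCCC) was in 23 of the 35 matrix promoters, or 65.7%, and in 32.7% of all 32851 promoters. The CCAAT box (CCAAT) was in 13 of the 35 and in 33.8% of all, and the TATA box (TATAAA) in 2 of the 35 and in 12.4% of all. The full palindromic estrogen response element was in none of the 35 and in 0.0639% of all, and its half-site (AGGTCA, which shares letters with the full element) was in 4 of the 35, those of Col20a1, Col23a1, Col24a1 and Gpc4, and in 14.02% of all. The AP-1 site (TGANTCA) was in Col6a1 alone, in the bases not shown, and in 6.75% of all promoters. The Smad CAGA box (CAGACA), in capitals above in Col1a2, was in 8 of the 35 and in 17.1% of all. A match describes letters only, and no match says nothing about a factor.

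In the first comparison, cluster 1 sums were set against responsive sums in a fit that also held the treatment. It held no term for library, so its standard errors ignore that the 2 sums of a library are paired. Because the cell groups were built from the expression of these same cells, fold changes and standard errors (SE, the log2 fold change over the root of its F statistic) are given as a description, with no test. By a fold rule, a gene was counted when its log2 fold change was beyond 1 and its sign was the same in all 17 libraries with both sums. Of the 40 matrix genes with enough reads, 4 were higher in cluster 1 (Col1a2, Gpc3, Ltbp2 and Lama1) and 8 were lower (Fbln1, Fn1, Lama4, Col6a2, Col6a1, Col3a1, Sparc and Bgn). A fit with a block for library gave the same 12 genes by this rule. Over all 10597 genes compared, 0.349% were higher and 1.9% lower by the same rule. The median log2 fold change was -0.23 over the 40 matrix genes and -0.06 over all genes. The other 16 matrix genes, among them Nid2, Col6a3, Col18a1, Lamc3 and Fbn2, had from 16.8 to 318 reads each in all cells and were not compared. Genes outside the rule for named genes, such as Col1a1, Col4a2, Gpc4, Ltbp4, Lama5, Lamc1 and Fbln5, were chosen after their values were seen.

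**Figure D1:**
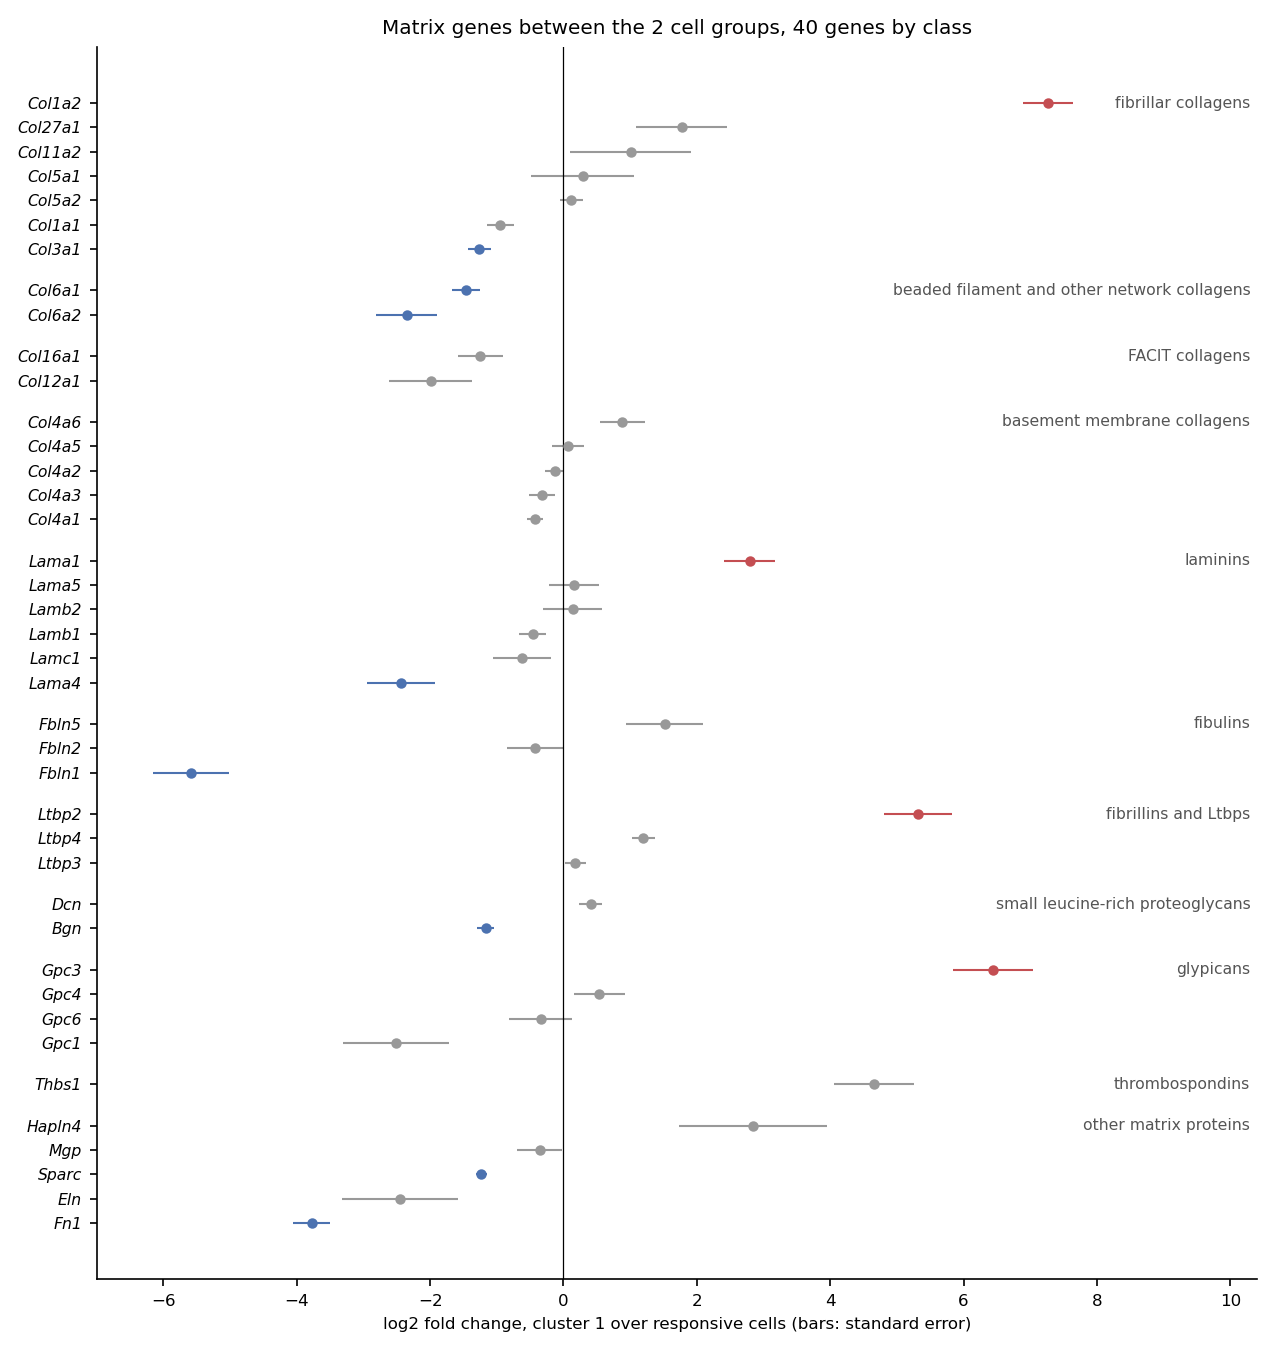
Log2 fold change of cluster 1 over responsive cells for the 40 matrix genes with enough reads, grouped by class, with bars for the standard error. Red points are the 4 genes higher and blue points the 8 genes lower by the fold rule, and gray points are the others. Col1a2 lies at 7.26 and Fbln1 at -5.58.

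Col1a2, the second chain of type I collagen (GRCm38 chromosome 6, 4504814 to 4541544), separated the cell groups most widely of the matrix genes. In responsive cells its level ran from 4.42 over a median of 7.81 to 65.4 CPM in control libraries and from 1.11 over 5.67 to 42.6 CPM in E2 libraries. In cluster 1 it ran from 1267 over 1872 to 2326 CPM in control libraries and from 1239 over 1865 to 2649 CPM in E2 libraries. Every cluster 1 library lay far above every responsive library, and control and E2 libraries of the same cell group overlapped. The log2 fold change was 7.26 (SE 0.37). A read of Col1a2 was found in 167 of 168 cluster 1 cells and in 178 of 421 responsive cells.

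Col1a1, the partner chain (chromosome 11, 94936224 to 94953042), did not follow it and was chosen for comparison after its values were seen. Its level ran from 138 over 193 to 245 CPM in control and from 65.3 over 128 to 218 CPM in E2 responsive libraries, and from 44.2 over 84.8 to 107 CPM in control and from 37.0 over 64.6 to 240 CPM in E2 cluster 1 libraries. The log2 fold change was -0.95 (SE 0.21), and Col1a1 was higher in cluster 1 in 1 of 17 libraries, E2 column 15, without which the value was -1.16 (SE 0.17) and the fold rule was met. Of the reads on both chains, Col1a2 held a median of 4.31% in control and 5.49% in E2 responsive libraries, against 96.1% in control and 96.0% in E2 cluster 1 libraries. No cluster 1 library was under 91.5% and no responsive library over 25.3%. Among cluster 1 cells, 129 had reads of both chains, 38 of Col1a2 alone and none of Col1a1 alone. Among responsive cells, 166 had both, 12 Col1a2 alone and 219 Col1a1 alone. A share of reads between 2 genes depends on the mapping and 3′ end of each, so these shares are compared only between cell groups.

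**Figure D2:**
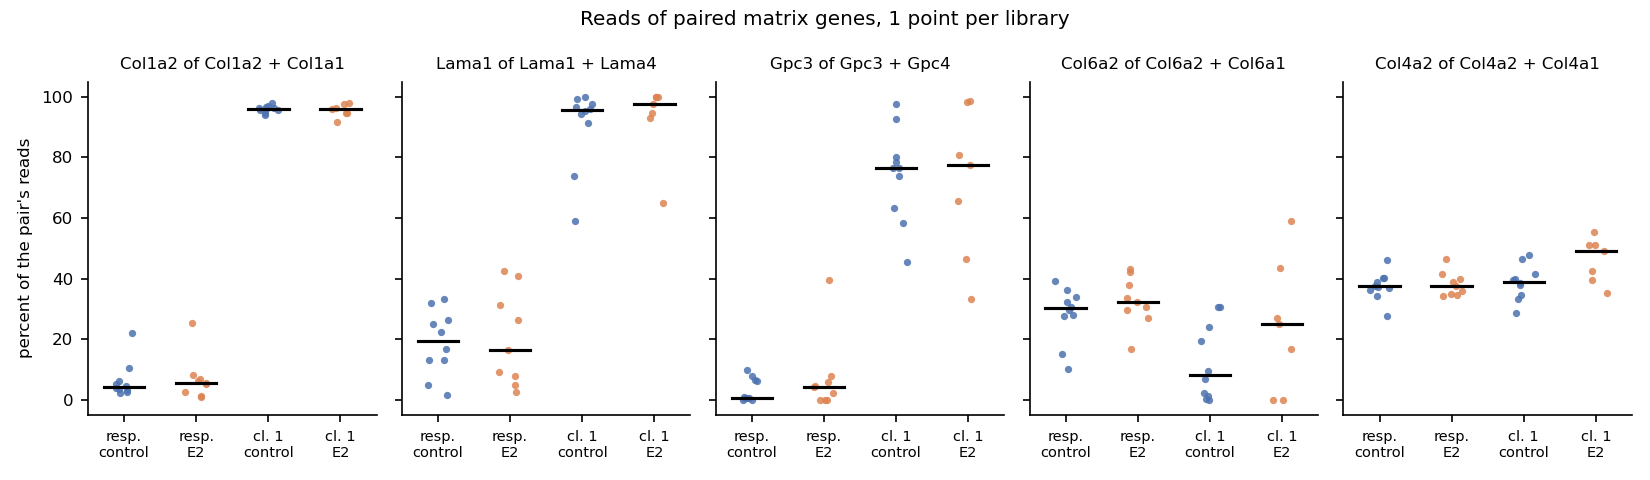
Reads of the first gene as percent of the reads of both genes of a pair, 1 point per library and a bar at the median, in responsive (resp.) and cluster 1 (cl. 1) sums of control (blue) and E2 (orange) libraries. For Col1a2 with Col1a1 all cluster 1 points are at or above 91.5% and all responsive points at or under 25.3%, whereas for Col4a2 with Col4a1 the 4 groups overlap.

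Other fibrillar collagens differed less. Col3a1, the single chain of type III collagen, had medians of 585 and 618 CPM in control and E2 responsive libraries and of 278 and 254 CPM in control and E2 cluster 1 libraries, and was lower in cluster 1 in all 17 libraries (log2 fold change -1.26, SE 0.17). Its highest responsive value, 2010 CPM, was that of E2 column 15, and without it the E2 responsive libraries ran from 457 over 582 to 726 CPM. Col5a2, a chain of the type V collagen that starts fibrils, had a log2 fold change of 0.12 (SE 0.18), and of -0.05 (SE 0.13) without E2 column 15. Col27a1 and Col11a2 had 1.77 (SE 0.68) and 1.01 (SE 0.91), on no more than 417 reads each, and their signs varied between libraries.

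Of the type VI collagen chains, Col6a1 and Col6a2 were lower in cluster 1. Col6a3, with 159 reads in all cells, was not compared, and was higher in cluster 1 in 6 of 17 libraries. The level of Col6a1 ran from 144 over 188 to 306 CPM in control and from 215 over 306 to 410 CPM in E2 responsive libraries, and from 14.3 over 69.8 to 122 CPM in control and from 47.6 over 113 to 182 CPM in E2 cluster 1 libraries. Col6a2 had medians of 78.9 and 153 CPM in responsive and of 5.86 and 51.5 CPM in cluster 1 libraries, control and E2 in that order. Log2 fold changes were -1.47 (SE 0.21) for Col6a1 and -2.35 (SE 0.45) for Col6a2, and both were lower in cluster 1 in every one of the 17 libraries. Reads of Col6a1 were found in 82 of 168 cluster 1 cells and 350 of 421 responsive cells, and those of Col6a2 in 36 and 240. The FACIT collagens Col12a1 and Col16a1, which sit on fibril surfaces, had log2 fold changes of -1.99 (SE 0.62) and -1.25 (SE 0.34), but were higher in cluster 1 in 3 and 2 of the 17 libraries.

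Basement membrane collagens were alike in both cell groups by comparison. Col4a1, the main chain of type IV collagen, had medians of 951 and 1034 CPM in control and E2 responsive libraries and of 870 and 599 CPM in control and E2 cluster 1 libraries. Its log2 fold change was -0.43 (SE 0.12), and that of Col4a2, its partner chain, was -0.13 (SE 0.14). These 2 genes lie head to head on chromosome 8, with annotated starts that overlap (Col4a1 from 11312826 leftward, Col4a2 from 11312805 rightward). Col4a2 held a median of 37.4% of the reads of both in control responsive libraries, 37.4% in E2 responsive, 39.0% in control cluster 1 and 49.2% in E2 cluster 1 libraries, and the ranges of all 4 groups overlapped. Col4a3, Col4a5 and Col4a6 had log2 fold changes of -0.33 (SE 0.19), 0.07 (SE 0.24) and 0.88 (SE 0.34).

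Laminin alpha chains, which give each laminin trimer its identity, went in opposite directions. Lama1, the alpha chain of early basement membranes, ran from 0.321 over 17.5 to 35.5 CPM in control and from 2.09 over 9.97 to 44.9 CPM in E2 responsive libraries, and from 45.9 over 140 to 260 CPM in control and from 43.1 over 122 to 226 CPM in E2 cluster 1 libraries. Only 2 responsive libraries, both with E2, passed the lowest cluster 1 library, and the log2 fold change was 2.80 (SE 0.38). Lama4, the alpha chain of vessel and mesenchymal basement membranes, had medians of 85.5 and 59.9 CPM in control and E2 responsive libraries and of 7.96 and 3.84 CPM in control and E2 cluster 1 libraries. It was lower in cluster 1 in all 17 libraries, with a log2 fold change of -2.44 (SE 0.51), and with each cell thinned to 20000 reads it no longer met the fold rule. Lama1 held a median of 95.6% of the reads of both in control cluster 1 libraries and 19.6% in control responsive libraries. Lama5, Lamb1, Lamb2 and Lamc1, which supply the other chains of the trimer or another alpha chain, had log2 fold changes between -0.62 and 0.16.

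Glypican 3 (Gpc3), a growth-factor co-receptor anchored at the cell surface, was higher in cluster 1 in all 17 libraries. It ran from 0 over 0.391 to 5.89 CPM in control and from 0 over 1.31 to 24.4 CPM in E2 responsive libraries. In cluster 1 it ran from 72.7 over 160 to 317 CPM in control and from 4.71 over 83.0 to 362 CPM in E2 libraries. Only the cluster 1 library of E2 column 15, at 4.71 CPM, lay within the responsive range, and the log2 fold change was 6.44 (SE 0.60). A read of it was found in 109 of 168 cluster 1 cells and in 37 of 421 responsive cells. Gpc4, chosen as its relative after values were seen, had a log2 fold change of 0.54 (SE 0.39), and Gpc3 held 76.3% of the reads of both in the median control cluster 1 library and 0.750% in the median control responsive library.

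Among growth-factor binders, Ltbp2, which attaches to fibrillin microfibrils, ran from 0.379 over 5.64 to 25.4 CPM in control and from 0 over 0.998 to 15.9 CPM in E2 responsive libraries. In cluster 1 it ran from 51.4 over 180 to 465 CPM in control and from 41.4 over 92.2 to 409 CPM in E2 libraries, above every responsive library. Its log2 fold change was 5.32 (SE 0.52). The gene overlaps D030025P21Rik on the other strand, and reads of the 2 cannot be told apart where strand was not used in counting. Ltbp4 and Ltbp3, which bind latent TGFB, had log2 fold changes of 1.20 (SE 0.17) and 0.17 (SE 0.16), and Ltbp4 was higher in cluster 1 in 16 of 17 libraries. Thbs1, an activator of latent TGFB, had medians of 4.23 and 2.23 CPM in control and E2 responsive libraries and of 79.6 and 51.5 CPM in control and E2 cluster 1 libraries. It was higher in cluster 1 in 16 of 17 libraries, so it did not meet the fold rule despite a log2 fold change of 4.66 (SE 0.60). Its highest value, 721 CPM, was that of E2 column 15, and without that library the log2 fold change was 4.07 (SE 0.59).

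The widest differences in the other direction were those of Fbln1 and Fn1. Fibronectin (Fn1), an adhesive glycoprotein that integrins bind, ran from 879 over 1114 to 1496 CPM in control and from 885 over 1182 to 1644 CPM in E2 responsive libraries. In cluster 1 it ran from 19.9 over 74.7 to 264 CPM in control and from 14.9 over 45.2 to 165 CPM in E2 libraries. No cluster 1 library came near the responsive ones, and the log2 fold change was -3.78 (SE 0.28). A read of Fn1 was found in 419 of 421 responsive cells and 115 of 168 cluster 1 cells. Fbln1, a fibulin of basement membranes and elastic fibers, had medians of 71.0 and 52.6 CPM in control and E2 responsive libraries, 0.217 CPM in control and 0 CPM in E2 cluster 1 libraries, with 32 reads in all in cluster 1 sums. Its log2 fold change was -5.58 (SE 0.57), while Fbln2 and Fbln5 had -0.42 (SE 0.42) and 1.52 (SE 0.58).

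Sparc, the matrix gene with the most reads, ran from 6517 over 7961 to 8857 CPM in control and from 5027 over 5747 to 6159 CPM in E2 responsive libraries. In cluster 1 it ran from 2501 over 3048 to 4447 CPM in control and from 1547 over 2257 to 3598 CPM in E2 libraries. Every responsive library was above every cluster 1 library (log2 fold change -1.23, SE 0.09). Bgn and Dcn, both small leucine-rich proteoglycans, parted. Bgn had medians of 720 and 490 CPM in control and E2 responsive libraries and of 354 and 169 CPM in control and E2 cluster 1 libraries (log2 fold change -1.17, SE 0.13). Dcn, which binds collagen fibrils, had a log2 fold change of 0.41 (SE 0.17), and of 0.22 (SE 0.09) without E2 column 15. Dcn reached 6405 CPM in cluster 1 and 2651 CPM in responsive cells of E2 column 15, and without that library E2 cluster 1 libraries ran from 736 over 1388 to 1870 CPM and E2 responsive libraries from 836 over 1225 to 1336 CPM.

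**Figure D3:**
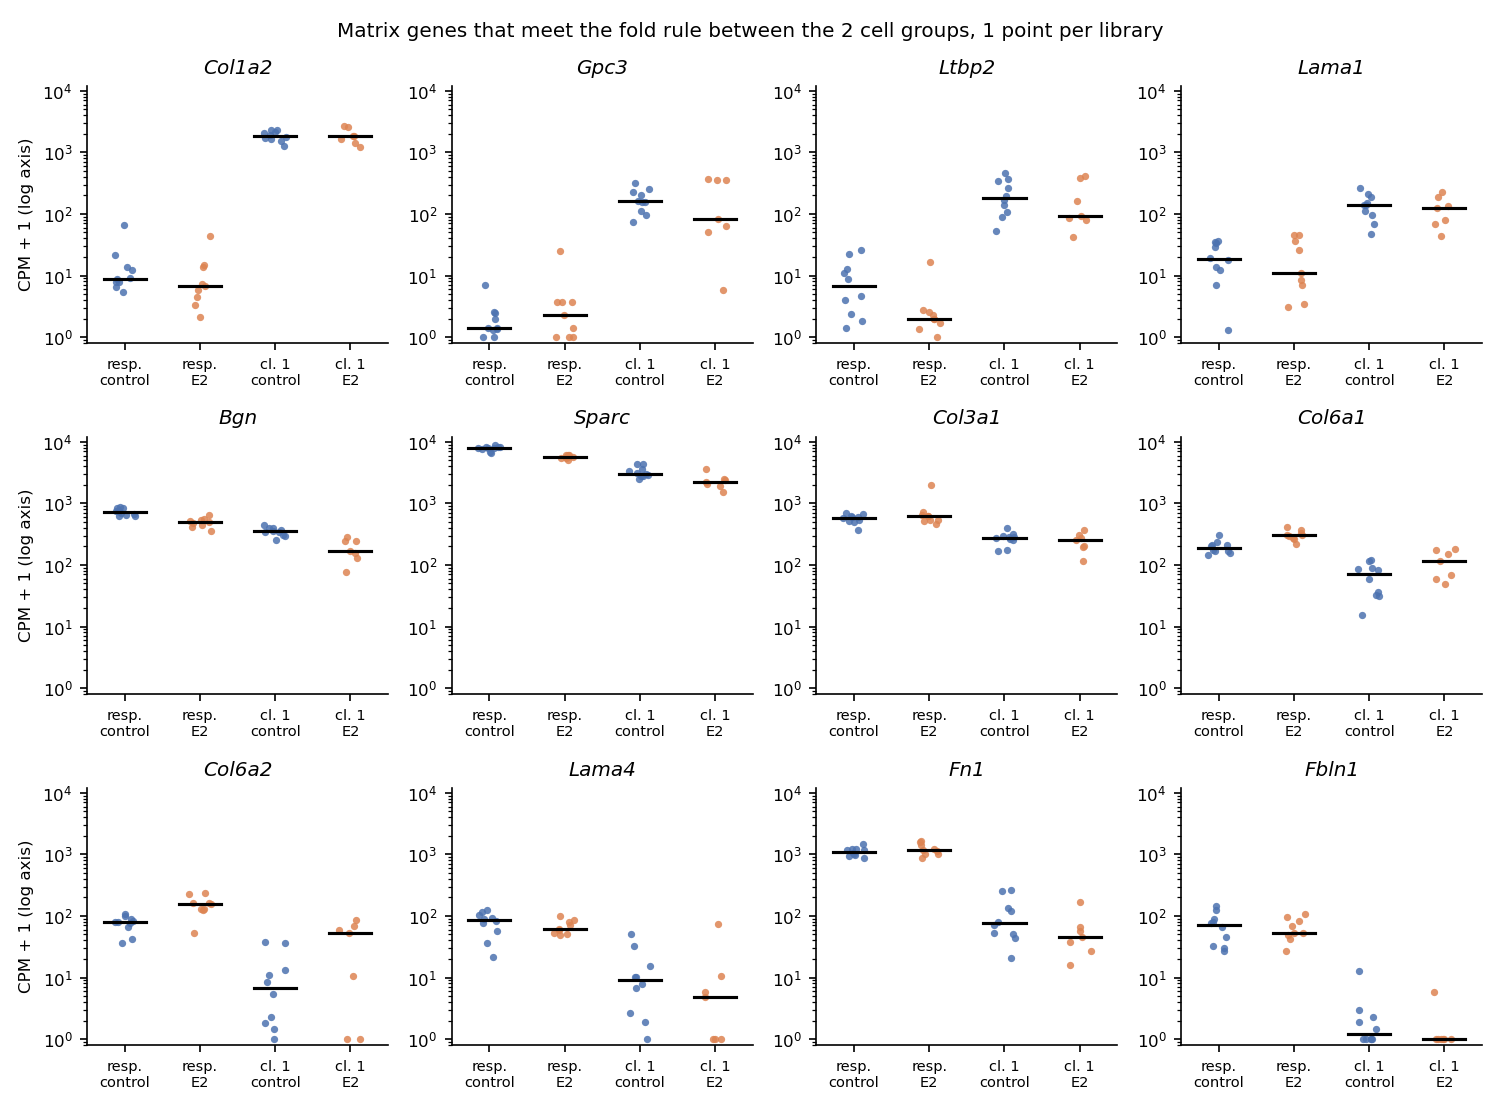
Levels of the 12 matrix genes that meet the fold rule, as CPM + 1 on a log axis, 1 point per library and a bar at the median, in responsive (resp.) and cluster 1 (cl. 1) sums of control (blue) and E2 (orange) libraries. Col1a2, Gpc3, Ltbp2 and Lama1 are higher in cluster 1 and the other 8 lower, and for Col1a2, Ltbp2, Sparc, Fn1 and Fbln1 no cluster 1 point reaches the responsive ones. The share of all genes without such overlap was not computed.

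Genes that modify and cross-link collagen were taken from a list written from general knowledge. Of 26 such genes with enough reads, none was higher and 3 were lower by the fold rule: Lox (log2 fold change -4.16, SE 0.58) and Loxl1 (-4.20, SE 0.46), which oxidize lysines for cross-links, and the transglutaminase Tgm2 (-1.67, SE 0.24). Log2 fold changes were above 0 for 5 of the 26, among them Pcolce, an enhancer of procollagen cleavage (0.89, SE 0.14), and Adamts3 (2.29, SE 0.88). In a list of other matrix proteins, 22 genes had enough reads, of which none was higher and 2 were lower, the elastin-associated glycoprotein Emilin2 (-4.52, SE 0.48) and Ecm1 (-1.49, SE 0.19). Log2 fold changes were above 0 for 8 of the 22, among them Tnc (5.55, SE 0.94), Srpx (2.90, SE 0.75), Npnt (2.22, SE 0.52), Mfge8 (1.61, SE 0.18) and Ccn1 (1.40, SE 0.25), none of which met the fold rule.

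Within responsive cells, E2 was compared with vehicle in 10 control and 9 E2 libraries by the quasi-likelihood test of edgeR, with Benjamini-Hochberg adjustment over all genes. Calls needed an adjusted p under 0.05 together with a log2 fold change beyond 0.5. Of 35 matrix genes tested, 3 rose (Col6a1, Col6a2 and Col12a1) and 3 fell (Mgp, Col5a2 and Bgn). Among all 10265 genes tested, 0.848% rose and 0.526% fell. The median log2 fold change was -0.11 over the 35 and 0.02 over all genes.

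Type VI collagen rose through both chains that had enough reads for a test. Col6a1 went from a median of 188 CPM (144 to 306) in control to 306 CPM (215 to 410) in E2 libraries. Of the 9 E2 libraries, 4 were above the highest control library and none was below the lowest. The change was 0.65 on the log2 scale (SE 0.15, adjusted p = 0.0232), and 0.68 (SE 0.15, edgeR adjusted p = 0.00824) without column 15. Col6a2 went from a median of 78.9 CPM (35.0 to 107) to 153 CPM (52.2 to 234), and all E2 libraries but that of column 15 were above the highest control library. Its log2 fold change was 1.04 (SE 0.24, adjusted p = 0.0187), and 1.15 (SE 0.20, edgeR adjusted p = 0.000934) without column 15. Col6a2 held a median of 30.1% of the reads of both chains in control and 32.1% in E2 libraries. A read of Col6a2 was found in 94 of 203 control and 146 of 218 E2 cells.

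Col12a1, a FACIT collagen that bridges fibrils, went from a median of 27.3 CPM (15.6 to 45.0) in control to 63.1 CPM (14.4 to 158) in E2 libraries (log2 fold change 1.41, SE 0.33, adjusted p = 0.0238). Of the 9 E2 libraries, 6 were above the highest control library and 1 was below the lowest. Its highest library was column 15, and without it the change was 1.18 (SE 0.32, adjusted p = 0.0570), so the call was lost. With each cell thinned to 20000 reads, none of Col6a1, Col6a2 and Col12a1 was called, at log2 fold changes of 0.55, 0.85 and 1.01 and adjusted p-values of 0.0574, 0.192 and 0.157.

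Mgp, matrix Gla protein, an inhibitor of calcification, fell most. Its level ran from 104 over 214 to 310 CPM in control and from 24.6 over 64.1 to 96.3 CPM in E2 responsive libraries. Every E2 library was below every control library. The log2 fold change was -1.85 (SE 0.27, adjusted p = 0.000105), and -1.79 (SE 0.27) without column 15. Reads of Mgp were found in 145 of 203 control and 80 of 218 E2 cells, at median depths of 143233 and 117809 reads per cell.

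Bgn ran from 627 over 720 to 862 CPM in control and from 355 over 490 to 640 CPM in E2 libraries, with 1 E2 library inside the control range, and fell by 0.56 on the log2 scale (SE 0.12, adjusted p = 0.0126). Col5a2 ran from 380 over 515 to 894 CPM in control and from 235 over 370 to 542 CPM in E2 libraries, which overlapped, and fell by 0.64 (SE 0.16, adjusted p = 0.0440). That call was lost in 16 of 19 fits that left out 1 library. Sparc fell by less than the fold limit, at -0.45 (SE 0.08, adjusted p = 0.00124), although no E2 library reached the lowest control library, and it was therefore not called. Col1a1 and Col1a2 had log2 fold changes of -0.53 (SE 0.19, adjusted p = 0.286) and -0.52 (SE 0.65, adjusted p = 0.898).

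**Figure D4:**
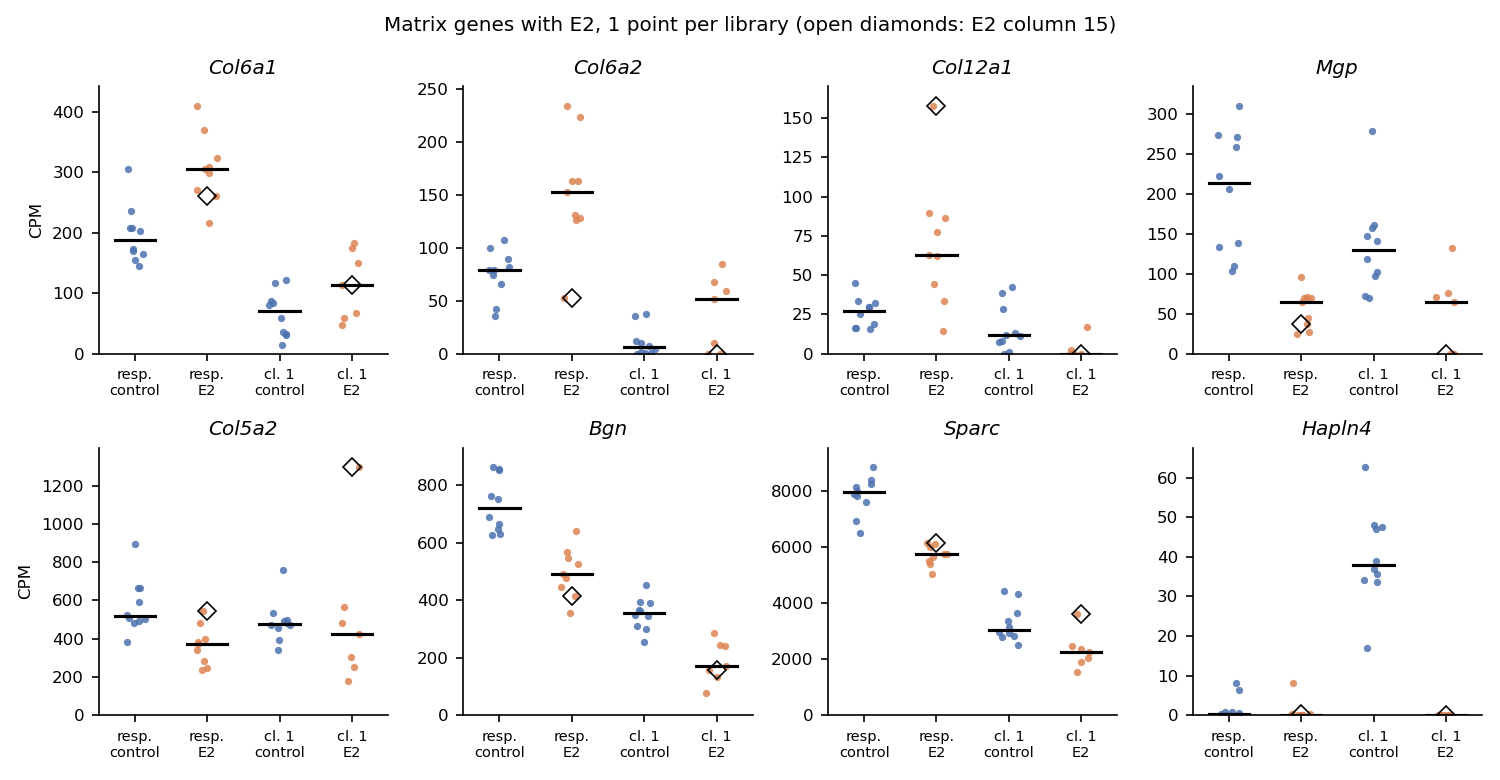
Levels in CPM of the 6 matrix genes called with E2 in responsive cells, of Sparc and of Hapln4, 1 point per library and a bar at the median, in responsive (resp.) and cluster 1 (cl. 1) sums of control (blue) and E2 (orange) libraries, with open diamonds for E2 column 15. The Mgp and Sparc points of E2 responsive libraries all lie below those of control libraries, and all 7 E2 cluster 1 points of Hapln4 are at 0.

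Other matrix genes with many reads did not pass. Fn1 had a log2 fold change of 0.15 (SE 0.12), Col4a1 0.16 (SE 0.13), Dcn 0.09 (SE 0.14), Ltbp3 -0.16 (SE 0.21), Lamb1 0.08 (SE 0.19) and Fbln2 -0.68 (SE 0.36), with adjusted p-values from 0.568 to 0.952 in edgeR. Without column 15, Dcn was at -0.08, Lamb1 at -0.04 and Ltbp3 at -0.03. Col3a1 had 0.38 (SE 0.21, adjusted p = 0.582) with column 15 and 0.06 (SE 0.11) without it. Of the collagen-modifying list, Tgm2 alone fell (-0.79, SE 0.17, adjusted p = 0.0113) of 26 tested and none rose. Of 21 other matrix genes tested, Emilin2 rose by 1.10 (SE 0.26, adjusted p = 0.0286) and Efemp2, an elastic-fiber fibulin, fell by 0.96 (SE 0.19, adjusted p = 0.00394).

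Within cluster 1, 10 control libraries were compared with 7 E2 libraries of 3 to 9 cells each. Of 32 matrix genes tested, none rose and 1 fell, Hapln4, a link protein that ties hyaluronan to proteoglycans, and 5 had an unadjusted p under 0.05, as did 622 of all 8340 genes. Among all 8340 genes tested, 0.036% rose and 0.048% fell. The median log2 fold change was -0.24 over the 32 and -0.06 over all genes. On simulated counts with the spread of these sums, 25.8% of changes of 2 on the log2 scale were recovered, against 72.04% in responsive cells. For changes of 1 these shares were 3.19% and 27.4%, so changes in cluster 1 were less often detectable at this depth. The simulation of cluster 1 also called 4 unchanged genes, where the real counts gave 7 calls among all genes.

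Hapln4 ran from 17.1 over 38.0 to 62.7 CPM in control cluster 1 libraries and was at 0 in all 7 E2 libraries. The groups did not overlap (edgeR, adjusted p = 0.00765). Pooled, the control sums held 624 reads of Hapln4, or 42.9 CPM without TMM scaling, in 25 of 126 cells, and the E2 sums held 0 of 3541910 reads, which allows up to 0.847 CPM. Against that limit, 3 reads over the pooled E2 sums, the control level was 50.6-fold higher. The limit covers counting error only and not the spread between cells, so it gives no lower bound on the change with E2. The 3 E2 cells in sums too small to be used held 18 reads, all in 1 cell, and over all 42 E2 cells the level was 4.81 CPM, 8.92-fold under control. With sums of 1 or 2 cells included, the log2 fold change was -1.79 and the adjusted p 0.899 (edgeR), and with each cell thinned to 20000 reads the gene was not called either. In responsive cells Hapln4 had 49 reads in control and 20 in E2 libraries, too few for a test.

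Genes called in responsive cells had these values in cluster 1. Col6a1 and Col6a2 had log2 fold changes of 0.85 (SE 0.45, adjusted p = 0.716) and 1.88 (SE 1.02, adjusted p = 0.738), Mgp -1.37 (SE 0.71, adjusted p = 0.693), Bgn -0.85 (SE 0.26, adjusted p = 0.324), Col5a2 0.12 (SE 0.30, adjusted p = 0.979) and Col12a1 -2.33 (SE 1.17, adjusted p = 0.689). Without E2 column 15, the highest E2 library of Col5a2 in cluster 1, its value was -0.36 (SE 0.22, adjusted p = 0.965). The 2 cell groups come from the same libraries. Col1a2, whose level was high there, had 0.09 (SE 0.17, adjusted p = 0.961), or -0.02 without column 15, and Gpc3, Ltbp2 and Lama1 had 0.12 (SE 0.50), -0.21 (SE 0.47) and -0.12 (SE 0.40).

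Whether the change with E2 differed between the cell groups was tested by the interaction of E2 and cell group. The fit held no term for library, so it ignored that the 2 sums of a library are paired. With a block for library, 0 matrix genes were called in edgeR. Of 42 matrix genes tested, none passed in edgeR or limma-voom and 7 had an unadjusted p under 0.05, as did 1244 of all 11398 genes, and DESeq2 called 1, Col12a1, at -3.67 on the log2 scale (SE 0.95, adjusted p = 0.0210). The edgeR value of Col12a1 was -3.76 (SE 1.04, adjusted p = 0.116), that of Col4a1 -0.73 (SE 0.21, adjusted p = 0.149) and that of Hapln4 -8.55 (SE 2.29, adjusted p = 0.0994). Among all 11398 genes tested, 0.0175% were higher and 0.167% lower. For Mgp, Col6a1 and Col6a2 the interaction was 0.46 (SE 0.68), 0.14 (SE 0.42) and 0.80 (SE 0.86), so no difference between the cell groups was detectable for them at this depth. On simulated counts, the interaction test recovered 14.6% of changes of 2 and 6.32% of changes of 1 on the log2 scale.

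Over all cells of a library, as in a bulk sample, 3 of 41 matrix genes rose with E2 (Col6a1, Col6a2 and Col12a1) and 2 fell (Mgp and Hapln4), where 1.13% of all 10945 genes rose and 0.484% fell. The call of Hapln4 was lost in 15 and that of Col12a1 in 6 of 19 fits that left out 1 library. Col5a2 was not called, at -0.53 (SE 0.14, edgeR adjusted p = 0.0549). It was called without column 15, at -0.63 (SE 0.12, edgeR adjusted p = 0.00326). Cluster 1 made up 38.1% ± 9.57 (SD, n = 10) of the cells of control libraries and 16.5% ± 9.23 (n = 9) of E2 libraries. In such sums fewer cells of a type and less RNA per cell cannot be told apart. Col1a2 had medians of 623 and 279 CPM in control and E2 libraries over all cells, a log2 fold change of -1.34 (SE 0.37, adjusted p = 0.0569), against -0.52 in responsive cells and 0.09 in cluster 1. Mgp fell by 1.66 (SE 0.21, adjusted p = 1.14e-05), Col6a1 rose by 0.88 (SE 0.13, adjusted p = 0.000192) and Col6a2 rose by 1.40 (SE 0.24, adjusted p = 0.000925) over all cells.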

How the data were processed

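Libraries of cDNA 3′ ends from single mouse OSE cells, control or E2, were analysed from 2 tables that the authors deposited. The first holds estimated counts per gene and cell, which the authors made with kallisto 0.44.0 on GRCm38. Of its values, zeros included, 90.1% are whole. Among values above 0, the whole share ran from 17.6% (Gpc6) to 100% (Mgp among others) over the matrix genes. The authors deposited a table of cell annotations as well, from which the labels of the 2 cell groups and the percent of mitochondrial reads were taken. Strand use in counting is not given in the sources used here, so genes that overlap on opposite strands cannot be told apart.

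Counts were summed over the cells of each chip column and cell group, kept for at least 3 cells, and rounded to whole numbers. Totals over all cells ran from 2693197 to 5078288 reads per library, and this depth limits genes with few reads. Sums were scaled by TMM and tested by the quasi-likelihood test of edgeR 4.0.16 in R 4.3.3, with Benjamini-Hochberg adjustment over all genes tested. Calls needed an adjusted p under 0.05 together with a log2 fold change beyond 0.5. Intervals and limits for counts of 0 (3 reads) cover counting error only. The fits were tested on simulated counts.

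The members and lists were chosen with earlier results of these data known. Genes were named if called in a test, if they had the most reads of their class, if they met the fold rule, or if they were Ltbp2 or Hapln4. Alternatives were DESeq2 1.42.0, limma-voom (limma 3.58.1), no filter on low counts, each cell thinned to 20000 reads, sums of at least 5 cells, a block for library, cell labels rebuilt by k-means (583 of 589 cells alike), and leaving out each library. Leaving out the cell with the most reads of a gene, sums of at least 1 cell, and leaving out column 15 for the cell group comparison and the interaction were added after seeing the data.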

Additional observations from a re-analysis of the deposited data

Results flagged for a closer look

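In 103 groups of 7 to 10 libraries, 28 values of single genes, several from the same library, lay farther from the rest of their group than the 95% limit of Dixon's test. For normally spread values chance alone passes that limit in about 1 of 20 groups. Levels that are 0 in most libraries, as for Nid2, are not spread so, and that rate does not hold for them.

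E2 column 15 accounted for 8 of them. In cluster 1 it was the highest E2 library for Dcn at 6405 CPM, Col5a2 at 1295 CPM, Thbs1 at 721 CPM, Fn1 at 165 CPM and Nid2 at 47.1 CPM. In responsive cells it was the highest for Col3a1 at 2010 CPM and Dcn at 2651 CPM, and the lowest for Ltbp3 at 138 CPM.

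Genes that were low in responsive cells had single high libraries there. Col1a2 reached 65.4 CPM in control column 7 and 42.6 CPM in E2 column 17, the library that was also highest for Ltbp2 at 15.9 CPM and Hapln4 at 8.15 CPM. Gpc3 reached 5.89 CPM in control column 1 and 24.4 CPM in E2 column 19.

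In cluster 1, the highest control libraries were those of Mgp at 278 CPM in column 3, Col5a2 at 758 CPM in column 7 and Fbln1 at 11.7 CPM in column 10. The highest E2 libraries of cluster 1 were those of Lama4 at 73.0 CPM and Col12a1 at 17.2 CPM in column 18, Col16a1 at 65.3 CPM in column 11 and Fbln1 at 4.76 CPM in column 20, the last on 2 reads.

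The others were of genes with few reads. Col23a1 reached 6.40 CPM in E2 cluster 1, 9.96 CPM in E2 responsive and 5.15 CPM in control responsive sums, and Col26a1 reached 1.28 CPM in E2 cluster 1 on 1 read. Nid2 reached 7.14 CPM in control cluster 1, 15.9 CPM in E2 responsive and 11.4 CPM in control responsive sums.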

How the results depend on the processing

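The count of 12 matrix genes by the fold rule ran from 11 to 13 over the alternatives. In responsive cells 6 genes were called and 3 with each cell thinned, Mgp, Bgn and Col5a2. There limma-voom called 4, without Col12a1 and Col6a2, the k-means labels gave 5, without Col5a2, and leaving out 1 library gave 4 to 6. Col6a1 was lost without control column 9 or E2 column 17, and Col6a2 without E2 column 12 or 18. In cluster 1 the call of Hapln4 gave a count of 1, and 0 with each cell thinned or with sums of at least 1 cell. The interaction had 0 calls in edgeR and 1 in DESeq2. Over all cells 5 genes were called, and 3 to 6 without 1 library, with 3 without control column 2, control column 8 or E2 column 20. There Hapln4 was lost by DESeq2, without a filter and with each cell thinned, and Col12a1 by limma-voom and with each cell thinned, while DESeq2 called 7 genes. The cause of these changes was not tested.

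For single named genes in responsive cells, 512 log2 fold changes were computed under alternatives, of which 465 kept their direction and side of the threshold, 29 lost the call and 18 changed sign. Col1a2 was 0.026 without the cell with the most reads of each gene, and ran from -1.23 to 0.16 when 1 library was left out. Lama1, at 0.02, was -0.12 by limma-voom, -0.0048 without a filter and -0.30 without the cell with most reads, and ran from -0.23 to 0.17 when 1 library was left out. Lamb1 was -0.011 with each cell thinned and ran from -0.037 to 0.14, Dcn from -0.081 to 0.16 and Fbln1 from -0.29 to 0.013 when 1 library was left out. No analysis that pairs control with E2 libraries was possible, because they share no replicate numbers.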
